A study of Mus musculus with 15 samples.

Results

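The genes described here are 48 genes of DNA replication and deoxynucleotide supply, chosen by name from the 17594 genes of the deposited expression table. All 48 were in the table. They were read in Treg (regulatory T cells, the Foxp3-positive CD4 cells that restrain immune responses) and conventional T cells (Tconv), both sorted from the spleen of C57BL/6 mice. Knockout (KO) animals carried a conditional Hpgd allele together with a Foxp3-Cre-YFP driver, so that recombination is directed to cells that express Foxp3. Control animals are labelled wild-type (WT), and the labels do not say whether they carried the driver, how old the animals were or which samples share an animal. Hpgd encodes hydroxyprostaglandin dehydrogenase, an enzyme that inactivates prostaglandin E2. Treg were read in 4 WT and 4 KO libraries and Tconv in 3 WT and 4 KO libraries.

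Before a cell copies its genome, the origin recognition complex and the loading factors Cdc6 and Cdt1 place the ring-shaped MCM helicase on DNA. In S phase Mcm10, Cdc45 and the GINS complex turn the helicase on, and primase, the replicative polymerases, the sliding clamp Pcna and the single-strand binding complex RPA build the new strands. Ribonucleotide reductase and thymidylate synthase provide the building blocks. Many of these genes are transcribed under E2F factors, which are held back by pocket proteins in resting cells such as most splenic T cells and are released when a cell commits to division. In bulk RNA, a larger share of dividing cells and more transcript per cell cannot be told apart.

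Levels are normalized read counts (reads divided by 1 size factor per library), given as mean ± SD. Fold changes are log2 values ± SE from a fit over all 15 libraries, and a gene is said to have passed when its p, adjusted over all 11314 genes tested, was under 0.05. The size of the libraries differed between genotypes: the reads assigned to genes ran from 6.43 to 10.0 M in Treg WT and from 2.64 to 4.71 M in Treg KO, and in Tconv from 6.60 to 11.1 M for WT and from 2.95 to 10.3 M for KO. Hpgd had 1 read, in Treg WT replicate 1, and 0 reads in the other 14 libraries, so the labels could not be checked on it. Sex ran with genotype: Ddx3y, on the Y chromosome, lay between 1154 and 1520 in the WT libraries and at 0 in the 8 KO libraries, and Xist between 8644 and 19007 in KO and at most 5.52 in WT. The sample numbers in the labels also form separate blocks by genotype. Sex and genotype cannot be told apart here. Foxp3 was between 3314 and 4800 in Treg and between 14.4 and 69.5 in Tconv. Treg WT replicate 4 stood apart from the other Treg WT libraries: it was the highest of its group for 31 of the 48 genes, and Mki67, a marker of cycling cells, was at 333 there against 156 to 198 in the other 3. Results are given with and without it where it matters.

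Much of the machinery was more abundant in Treg of the knockout animals than in Treg of the controls. Clspn, Mcm10 and Cdc6 had the largest estimates, each from a low level in Treg WT. Of the 48 genes, 24 were higher in Treg KO, 2 were lower (Pold2 and Gins4) and 22 did not pass. Over all genes tested, 10.4% were higher and 11.1% were lower. The median log2 fold change of the 48 genes was 0.42, against -0.0003 over all genes tested, and 38 of the 48 estimates were positive. The 4 libraries of each group did not overlap for 22 genes on the higher side and for 2 on the lower side, where 13.2% and 13% of all genes tested had no overlap. Without Treg WT replicate 4, 22 were higher and 0 lower; of the 26 genes that had passed, 21 passed without it. Cdc6, Mcm10 and the origin recognition subunit Orc1 met the filter on low values only through Treg KO, the group where they are high; of the other 45 genes, 22 were higher and 2 lower, and 19 were higher and 0 lower without Treg WT replicate 4. The change was uneven within nearly every step of replication, as the plot of all genes by library shows.

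**Figure D1:**
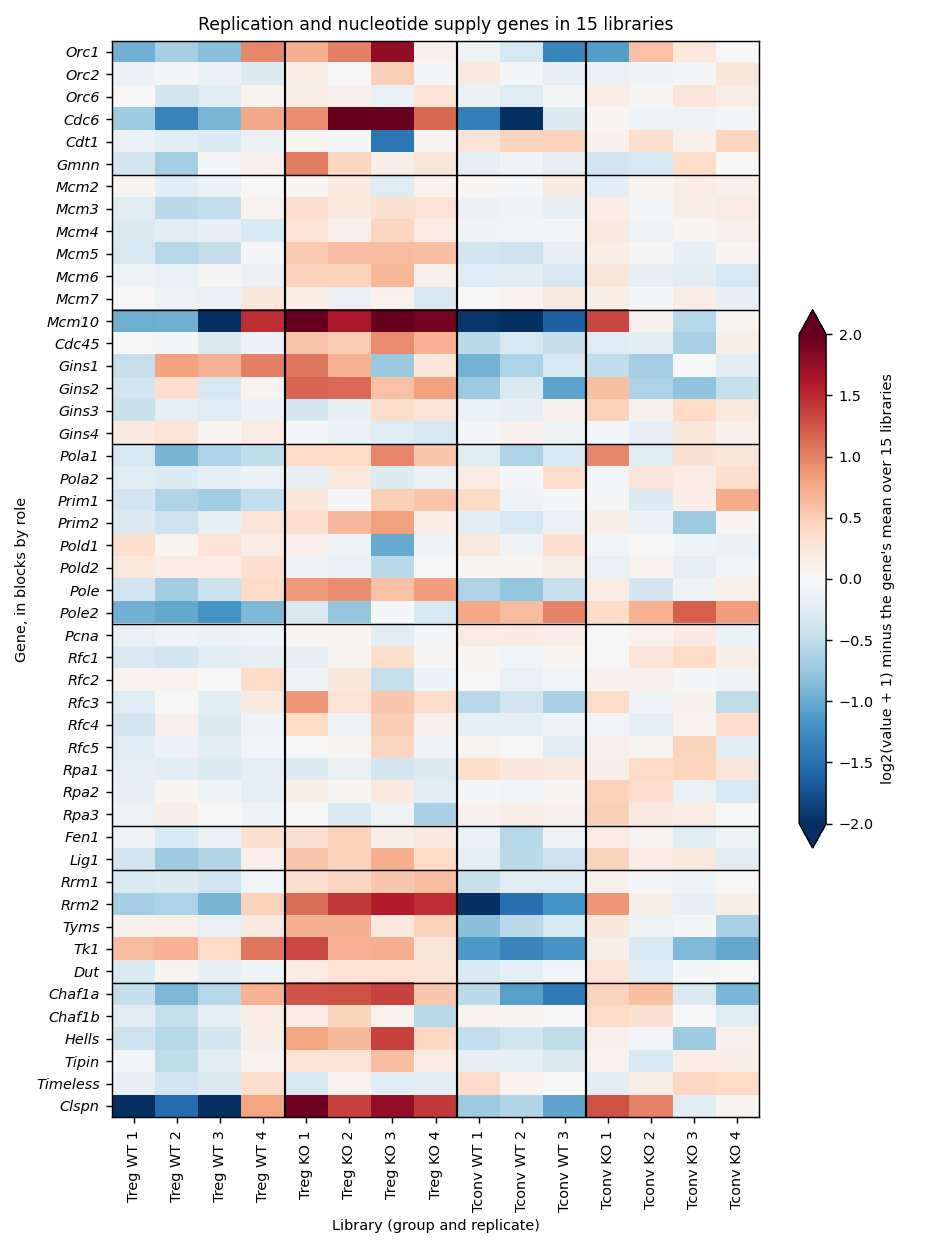
Level of each of the 48 genes (rows, in 8 blocks by role) in each of the 15 libraries (columns), as log2(value + 1) minus the mean of that gene over all libraries, red for above and blue for below. The Treg KO columns are red for most genes that passed, such as Clspn, Mcm10, Cdc6 and Rrm2, Treg WT replicate 4 is redder than the other Treg WT columns for these genes, and Pole2 and Rpa1 divide Treg from Tconv in both genotypes.

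Shared promoter letters were looked for because many genes of this machinery are known E2F targets. RefSeq promoter windows (GRCm38.p6, 250 bases before to 50 bases after the start) were found for 39 of the 48 genes. An E2F motif, taken as TTT, then 2 bases that are each C or G, then CGC on either strand, was in the windows of 15 of these 39 genes (38.5%). It was in those of 426 of 8614 tested genes with a window (4.95%) and of 704 of all 27025 genes (2.60%). CCAAT, the letters bound by the factor NF-Y, was in 61.5% of the 39 genes against 43.3% of tested genes, and TTTGAA, a form of the cell cycle homology element of mitotic genes, in 12.8% against 14.3%, both strands searched. The 5 genes with an E2F match and the smallest p in Treg KO against Treg WT are shown, each 5′ to 3′ along its own gene, with the E2F letters in capitals.
Mcm5: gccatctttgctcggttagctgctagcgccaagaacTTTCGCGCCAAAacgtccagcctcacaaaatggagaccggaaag
Lig1: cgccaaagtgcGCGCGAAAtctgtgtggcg
Pola1: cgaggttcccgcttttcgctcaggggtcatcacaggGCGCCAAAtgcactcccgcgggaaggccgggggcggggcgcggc
Mcm3: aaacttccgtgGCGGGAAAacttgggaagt
Clspn: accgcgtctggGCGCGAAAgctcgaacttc
The Mcm5 stretch is chr8:75109320-75109399 on the plus strand and holds overlapping matches on both strands, beginning 153 bases before the start. The Pola1 stretch is chrX:93632250-93632329 on the minus strand, with its match 138 bases before the start. Neither touches an annotated exon. The other 3 lie in an annotated exon just after the start: Lig1 at chr7:13278841-13278870 (plus strand, 26 bases after), Mcm3 at chr1:20820275-20820304 (minus strand, 19 bases after) and Clspn at chr4:126556990-126557019 (plus strand, 21 bases after). Of the 15 genes with the motif, 10 passed in Treg KO against Treg WT (21.5% of all genes tested passed in either direction), with a median log2 fold change of 0.65. Of the 24 without it, 9 passed in either direction, among them Pold2, which fell, and the median of the 24 was 0.27. All 10 that passed with the motif rose. Cdt1, Mcm7 and Pold1 have the motif and did not pass, while Rrm1, Rrm2 and Mcm10 have none in this window and did. These counts include Cdc6 and Orc1, with the motif, and Mcm10, without it, which met the filter on low values only through Treg KO. A match is a description of letters and not a measured binding site.

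**Figure D2:**
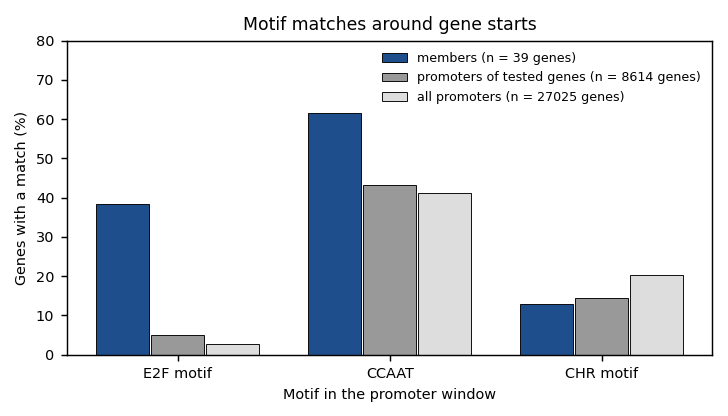
Share of genes (%) with at least 1 match to each of 3 motifs in the 300-base window around the start, for the 39 genes described here (dark), the tested genes (grey) and all genes of the promoter table (light). The E2F bar reaches 38.5% for the 39 genes against 4.95% of tested genes, whereas the CHR motif (TTTGAA) has 12.8% against 14.3%.

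Origin recognition and helicase loading came first in the order of replication, and 2 of its 6 genes rose in Treg KO. Over all genes tested, 10.4% were higher. Of the 2, Cdc6 met the filter on low values only through Treg KO, the group where it is high. Cdc6, the ATPase that closes the MCM ring around DNA, was at 4.80, 2.76, 4.07 and 15.1 in the 4 Treg WT libraries and at 17.4, 42.5, 36.6 and 20.1 in Treg KO. The highest Treg WT library, replicate 4, stayed just under the lowest Treg KO library. Cdc6 rose by 2.12 ± 0.48 (adjusted p = 0.0078), and by 1.35 with a pseudocount of 8 and 2.32 with one of 0.1, since its levels are low. Gmnn, which encodes geminin, the inhibitor that blocks Cdt1 after origins have fired, rose from 33.6 ± 7.95 to 56.1 ± 17.3 (0.71 ± 0.23, adjusted p = 0.042). Cdt1 itself was at 164, 152, 147 and 162 in Treg WT and at 183, 176, 64.6 and 182 in Treg KO, with replicate 3 far below the other 3 (-0.16 ± 0.25, adjusted p = 0.67). The subunits Orc1, Orc2 and Orc6 had estimates of 1.27 ± 0.54, 0.29 ± 0.12 and 0.25 ± 0.13 and did not pass (adjusted p = 0.10, 0.10 and 0.19).

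The 6 subunits of the MCM ring are present in equal numbers in the protein complex, but their transcripts differed in response. Mcm3, Mcm4, Mcm5 and Mcm6 rose in Treg KO, and Mcm2 and Mcm7 did not pass. Mcm5 was at 271, 228, 245 and 330 in Treg WT and at 490, 522, 519 and 518 in Treg KO, so that all 4 KO libraries lay above all WT libraries. Its rise of 0.94 ± 0.10 (adjusted p = 3.0e-05) had the smallest p of the 48 genes. Mcm3 rose from 278 ± 57.3 to 410 ± 14.3 (0.58 ± 0.11, adjusted p = 0.0028), Mcm4 from 546 ± 25.5 to 769 ± 80.7 (0.49 ± 0.08, adjusted p = 9.4e-04) and Mcm6 from 783 ± 39.7 to 1126 ± 176 (0.51 ± 0.12, adjusted p = 0.0095). Mcm7 was at 276, 258, 254 and 324 in Treg WT and at 303, 250, 291 and 222 in Treg KO, ranges that overlap (-0.06 ± 0.11, adjusted p = 0.70). Mcm2 had an estimate of 0.08 ± 0.10 (adjusted p = 0.60). Mcm5 lies on chromosome 8 (75109569 to 75128439, GRCm38), 18.8 Mb from Hpgd, and Orc6, Cdt1, Gins2, Gins3 and Gins4 are on the same chromosome, 29.0 to 66.3 Mb from it.

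Among the 6 factors that switch the helicase on, 3 rose and 1 fell, where 10.4% and 11.1% of all genes tested did. Of the 3, Mcm10 met the filter on low values only through Treg KO, the group where it is high. Mcm10, which helps to start unwinding, was at 2.74, 2.76, 0.582 and 19.5 in Treg WT and at 33.4, 21.8, 38.8 and 26.7 in Treg KO. Replicate 4 alone brought the WT mean to 6.40 ± 8.80, and all KO libraries were higher than it. Mcm10 rose by 2.72 ± 0.64 (adjusted p = 0.0090), and by 3.44 without that library. The estimate was 1.55 with a pseudocount of 8. Its size rests on few reads, since 1 read is a value of 0.685, 0.690 and 0.582 in Treg WT replicates 1, 2 and 3. Cdc45, the partner of MCM and GINS in the active helicase, rose from 23.4 ± 2.25 to 41.3 ± 5.92 (0.79 ± 0.19, adjusted p = 0.011). The 4 GINS genes went separate ways. Gins2 rose from 10.7 ± 2.89 to 22.2 ± 4.29 (adjusted p = 0.045), Gins4 fell from 153 ± 9.16 to 120 ± 10.5 (-0.36 ± 0.11, adjusted p = 0.026), and Gins3 did not pass (0.26 ± 0.16, adjusted p = 0.26). Gins1 was at 5.48, 14.5, 13.4 and 16.8 in Treg WT and at 17.4, 13.3, 4.31 and 9.36 in Treg KO, with no separation (-0.21 ± 0.42, adjusted p = 0.75).

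Of the 8 polymerase and primase genes, 5 rose (62.5%) and 1 fell (12.5%, near the 11.1% of all genes tested that were lower). Over all genes tested, 10.4% were higher. Pole, the catalytic subunit of the leading-strand polymerase epsilon, was at 54.8, 44.8, 53.5 and 95.7 in Treg WT and at 132, 140, 110 and 131 in Treg KO. The groups did not overlap, and Pole rose by 1.09 ± 0.20 (adjusted p = 0.0023). Pola1, the catalytic subunit of the polymerase alpha that extends primers, rose from 57.9 ± 9.65 to 133 ± 27.2 (1.18 ± 0.22, adjusted p = 0.0024). It is the only one of the 48 genes on the X chromosome, which differs in number between the male WT and female KO libraries. The primase subunits Prim1 and Prim2 rose by 0.86 ± 0.20 and 0.64 ± 0.20 (adjusted p = 0.0092 and 0.037) and the epsilon subunit Pole2 by 0.65 ± 0.19 (adjusted p = 0.026). Pola2, the regulatory subunit of polymerase alpha, was at 180, 178, 191 and 197 in Treg WT and at 190, 249, 177 and 194 in Treg KO (0.11 ± 0.12, adjusted p = 0.54). The lagging-strand polymerase delta had negative estimates for both of its genes among the 48. Pold2 fell from 236 ± 15.3 to 180 ± 27.5 (-0.40 ± 0.11, adjusted p = 0.018). Pold1, at 344 ± 31.5 and 255 ± 74.6, did not pass (-0.48 ± 0.18, adjusted p = 0.064). Outside the 48, its subunit gene Pold3 was at 295 ± 9.08 in Treg WT and 363 ± 33.9 in Treg KO and did not pass. Pold4 was lower in Treg KO, at 216 ± 40.8 and 155 ± 15.2. Pold2 has a GC content of 58.7%, and with the trend on GC content removed from each library its estimate was -0.04 (adjusted p = 0.76); it also did not pass without Treg WT replicate 4 (adjusted p = 0.058) or in a fit of the Treg groups alone (0.055).

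The clamp, its loader and the RPA complex had the lowest share of calls among the role groups, with 2 of 9 genes higher and 0 lower (3 of the 9 had an unadjusted p under 0.05) and a median log2 fold change of 0.14. Over all genes tested, 10.4% were higher and 11.1% lower. Pcna, the sliding clamp often used as a marker of proliferating cells, was at 491, 519, 502 and 512 in Treg WT and at 560, 563, 472 and 538 in Treg KO. The ranges overlap, with an estimate of 0.07 ± 0.07 (adjusted p = 0.50). Rpa1, the large subunit of RPA, was at 946, 920, 890 and 944 in Treg WT and at 898, 979, 836 and 896 in Treg KO (-0.04 ± 0.07, adjusted p = 0.74). Rfc3, a subunit of the clamp loader, was at 52.8, 63.5, 54.1 and 71.8 in Treg WT and at 116, 76.4, 92.6 and 81.6 in Treg KO and rose by 0.58 ± 0.19 (adjusted p = 0.038). The large loader subunit Rfc1 rose from 372 ± 23.3 to 468 ± 73.1 (0.32 ± 0.11, adjusted p = 0.042). The other loader subunits Rfc2, Rfc4 and Rfc5 had estimates of -0.24, 0.38 and 0.25, and Rpa2 and Rpa3 of 0.14 and -0.25, and none of the 5 passed.

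On the lagging strand, Fen1 trims the flaps between Okazaki fragments and Lig1 seals the nicks. Lig1 was at 128, 101, 111 and 180 in Treg WT and at 245, 229, 278 and 219 in Treg KO, without overlap, and rose by 0.93 ± 0.17 (adjusted p = 0.0023). Fen1 was at 123, 104, 118 and 162 in Treg WT and at 161, 178, 142 and 147 in Treg KO (0.32 ± 0.15, adjusted p = 0.13). Replicate 4 of Treg WT lay within the KO range for Fen1 and under it for Lig1.

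Nucleotide supply gained mainly through ribonucleotide reductase, which turns ribonucleotides into deoxyribonucleotides. Rrm1, its large subunit, was at 225, 232, 211 and 270 in Treg WT and at 354, 375, 405 and 428 in Treg KO and rose by 0.74 ± 0.09 (adjusted p = 1.3e-04). Rrm2, the small subunit whose protein is limited to S phase, was at 35.6, 36.6, 29.7 and 79.8 in Treg WT and at 126, 155, 175 and 162 in Treg KO. All KO libraries lay above Treg WT replicate 4, and Rrm2 rose by 1.85 ± 0.29 (adjusted p = 9.7e-04), or by 2.15 without that replicate. Dut, which removes dUTP, rose from 136 ± 13.7 to 177 ± 6.78 (0.38 ± 0.11, adjusted p = 0.027). Thymidylate synthase, Tyms, was at 56.2 ± 5.55 and 78.3 ± 12.7 and did not pass (0.46 ± 0.19, adjusted p = 0.094), although its libraries did not overlap. Thymidine kinase, Tk1, which salvages thymidine, was at 58.2, 60.7, 48.9 and 78.9 in Treg WT and at 94.3, 60.7, 62.5 and 44.1 in Treg KO, with no separation (0.05 ± 0.26, adjusted p = 0.91).

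Of the 6 genes of chromatin assembly and fork protection, 4 rose, where 10.4% of all genes tested were higher. Clspn, which encodes claspin, the adaptor that activates the kinase Chk1 at stalled forks, was at 2.06, 4.14, 0.582 and 24.8 in Treg WT and at 56.6, 37.6, 49.6 and 38.8 in Treg KO. Its estimate of 3.19 ± 0.62 (adjusted p = 0.0034) was the largest of the 48, and it was 1.96 with a pseudocount of 8, 3.67 with one of 0.1 and 3.98 without Treg WT replicate 4. The size of these estimates rests on few reads, since the value of 0.582 in Treg WT replicate 3 is 1 read. Hells, a remodeller needed for DNA methylation, rose from 58.6 ± 13.2 to 130 ± 39.8 (1.12 ± 0.22, adjusted p = 0.0036). Chaf1a, the large subunit of the CAF-1 histone chaperone, was at 20.6, 15.2, 19.2 and 47.9 in Treg WT and at 71.1, 71.6, 75.4 and 42.8 in Treg KO, ranges that overlap through the last library of each, and rose by 1.42 ± 0.38 (adjusted p = 0.017). Its partner Chaf1b, at 65.4 ± 11.8 and 77.6 ± 21.2, did not pass (adjusted p = 0.47). Tipin and Timeless form 1 fork protection complex: Tipin rose from 63.4 ± 10.7 to 91.1 ± 12.9 (0.52 ± 0.16, adjusted p = 0.028), and Timeless was at 184, 158, 172 and 264 in Treg WT and at 168, 217, 175 and 179 in Treg KO (-0.05 ± 0.17, adjusted p = 0.85).

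**Figure D3:**
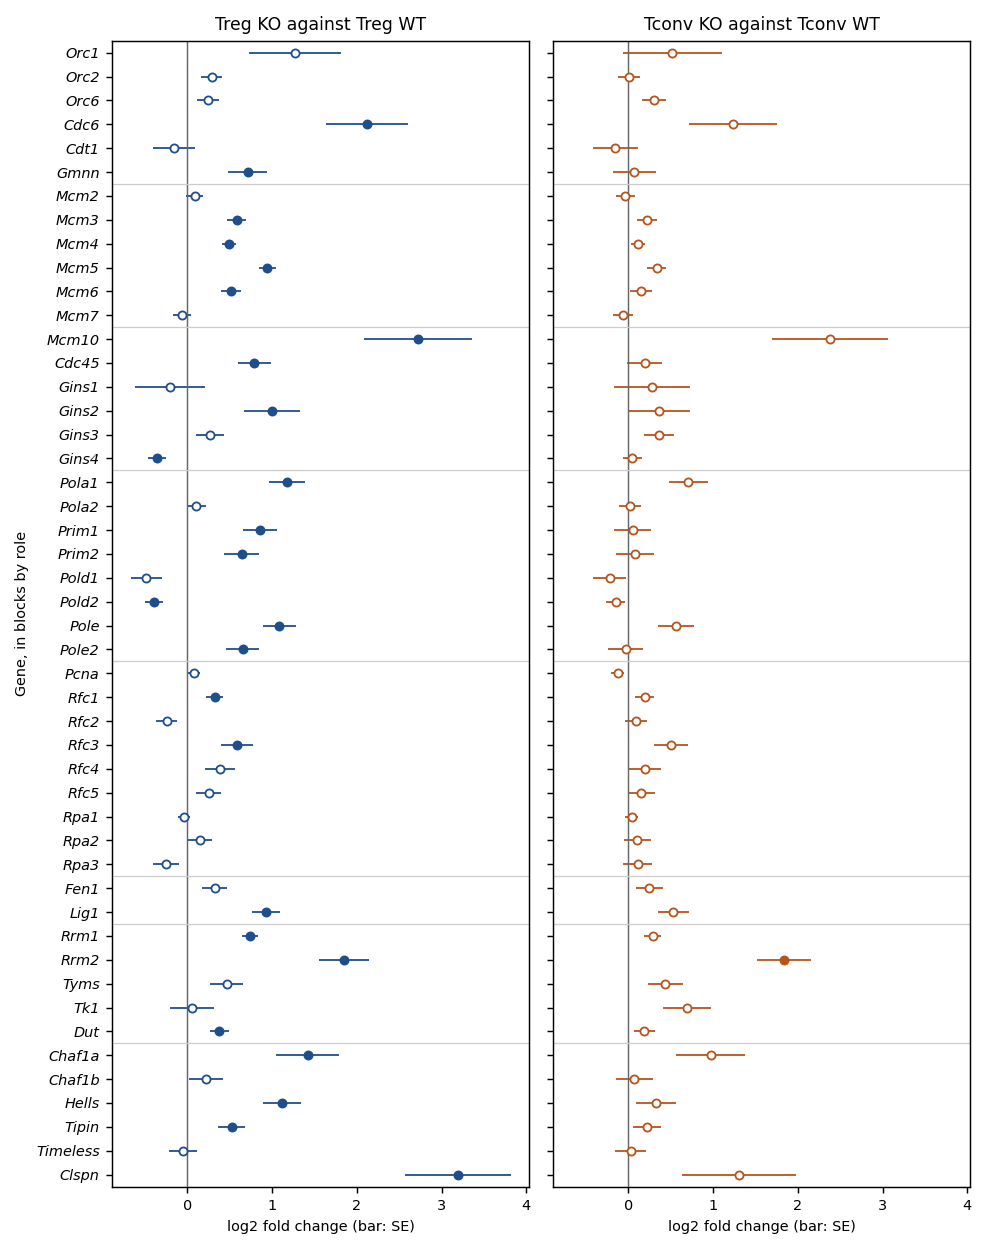
Log2 fold change of KO against WT with its SE for the 48 genes in Treg (left) and Tconv (right), in the same order and on the same axis, with filled points for genes that passed and open points for those that did not. In Treg 24 filled points lie above 0 and those of Gins4 and Pold2 below it; in Tconv the 1 filled point is Rrm2.

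The 8 genes that passed with more than a 2-fold rise in Treg KO were Cdc6, Mcm10, Pola1, Pole, Rrm2, Chaf1a, Hells and Clspn, and each had a Treg WT mean of at most 62.2. At any size of change 10.4% of all genes tested were higher, and the share above 2-fold was not counted. Levels between genes are compared per kilobase of transcript, as normalized reads per kilobase. On that scale Pcna was highest in Treg WT at 333, followed by Rpa1 at 182, Mcm6 at 180 and Mcm4 at 152, and Mcm10, Cdc6, Orc1 and Clspn were lowest at 1.31, 1.45, 1.47 and 1.57. For Orc1, Cdc6 and Mcm10 fewer than 3 libraries outside Treg KO reached the minimum value of 10 that the test required, so 6 of the 8 genes remain when these are set aside.

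How firm the 26 calls were differed between genes. Cdc6, Mcm3, Mcm4, Mcm5, Mcm6, Mcm10, Cdc45, Pola1, Prim1, Pole, Lig1, Rrm1, Rrm2, Hells and Clspn, 15 in all, passed without any 1 of the 8 Treg libraries and under every other setting in which they were tested, or 13 without Cdc6 and Mcm10, which met the filter only through Treg KO. The other 11 did not. Among the loading and activating factors, Gmnn was lost when replicates 1, 2 and 3 of Treg WT and 1 and 2 of Treg KO were each left out (adjusted p from 0.052 to 0.12), and Gins4 for replicates 1, 2 and 4 of Treg WT and 3 and 4 of Treg KO (0.054 to 0.072). Gins2 was kept only without Treg WT replicate 2 (0.053 to 0.12 otherwise). Among the polymerase genes, Pole2 was lost for replicates 1, 2 and 3 of Treg WT and 3 of Treg KO (0.055 to 0.073), Prim2 for 1, 2 and 3 of Treg WT and 2 and 3 of Treg KO (0.073 to 0.11) and Pold2 as given above. In the clamp loader, Rfc3 was lost for replicates 1, 2 and 3 of Treg WT and 1 and 3 of Treg KO (0.064 to 0.11), and Rfc1 was kept only without Treg KO replicate 1 (0.057 to 0.12 otherwise). Chaf1a was lost without Treg WT replicate 2 (0.052), Tipin for replicates 2 and 3 of Treg WT and 3 of Treg KO (0.061 to 0.088) and Dut for 1, 3 and 4 of Treg WT and 3 of Treg KO (0.053 to 0.090). Other settings also ended calls of these genes: reads thinned to 1 depth those of Dut, Gins2, Gins4, Gmnn, Prim2 and Rfc1, and removal of the GC trend those of Gmnn, Pold2, Pole2, Prim2, Rfc1, Rfc3 and Tipin. A fit of the Treg groups alone ended those of Gins4, Gmnn, Pold2, Pole2, Prim2, Rfc1 and Tipin, and a test without a filter those of Gins2, Gmnn, Prim2, Rfc1 and Rfc3. Removal of the length trend ended those of Gins2, Gins4 and Rfc1, a pseudocount of 0.1 that of Gins2, and quantile normalization and TMM factors that of Rfc1. Rfc1 thus passed in 6 of 13 such settings and Gins2 in 8 of 12.

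Other genes of the pathway were read for comparison. Of 30 tested further replication factors 10 were higher in Treg KO (33.3%) and 2 lower (6.67%), with a median of 0.23. Over all genes tested, 10.4% were higher and 11.1% lower. The histone chaperone Asf1b rose from 39.5 ± 8.86 to 73.1 ± 7.73 (adjusted p = 0.0029), Uhrf1, which recruits DNA methylation to new strands, from 60.6 ± 32.5 to 154 ± 31.7 (0.0034) and the clamp unloader Atad5 from 75.9 ± 5.01 to 147 ± 41.7 (0.0039). The small epsilon subunit Pole4 fell from 276 ± 29.6 to 173 ± 21.7 (-0.68 ± 0.12, adjusted p = 0.0022). Of 38 further genes of nucleotide metabolism, 4 rose and 5 fell (10.5% and 13.2%, near the 10.4% and 11.1% of all genes tested), with a median of -0.03. The 3 named here are those that fell with the smallest p. The nucleoside diphosphate kinase Nme2 (-1.15 ± 0.20, adjusted p = 0.0017), the guanine nucleotide enzyme Impdh2 (-0.44 ± 0.09, 0.0049) and the mitochondrial folate enzyme Mthfd2 (-0.42 ± 0.10, 0.012) fell. These lists and the 48 genes overlap in pathway but share no gene.

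Of 24 genes of the E2F and pocket protein network, 10 rose in Treg KO and 0 fell, with a median of 0.32 (14 had an unadjusted p under 0.05). For this list and the mitosis list below, the shares over all genes tested were 10.4% higher and 11.1% lower. The pocket protein Rbl2, which represses E2F targets in resting cells, rose from 1426 ± 96.7 to 2779 ± 556 (0.94 ± 0.15, adjusted p = 9.7e-04). The atypical repressors E2f7 and E2f8 rose from 2.01 ± 1.04 to 18.2 ± 9.56 and from 6.00 ± 9.08 to 32.4 ± 1.85 (adjusted p = 0.0061 and 0.0060), and Lin9, a subunit of the complex that acts on mitotic genes, from 109 ± 15.1 to 171 ± 29.8 (0.0065). Of 20 mitosis genes 18 rose and 0 fell, with a median of 1.64, beside 0.42 for the 48 replication and nucleotide genes. Mki67 rose from 216 ± 79.9 to 898 ± 79.3 (2.11 ± 0.22, adjusted p = 2.3e-05). Summed over the mitosis list, the 4 Treg WT libraries had 450, 548, 536 and 992 and the 4 Treg KO libraries 2101, 2208, 2445 and 1858. Summed over the 48 genes, they had 7945, 7618, 7760 and 8755 in Treg WT and 10101, 10167, 10230 and 9492 in Treg KO. Treg WT replicate 4 was the highest WT library on both sums and the KO libraries were above it on both.

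**Figure D4:**
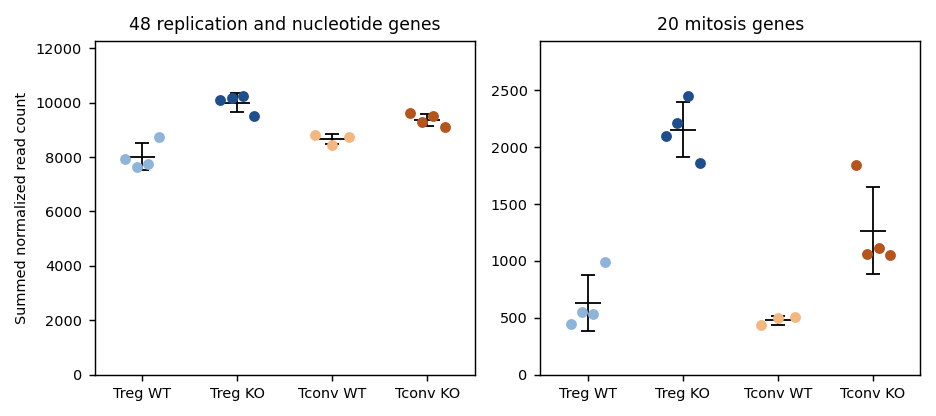
Summed normalized read counts of the 48 replication and nucleotide genes (left) and of 20 mitosis genes (right) by group, with 1 point per library, the mean as a line and the SD as a bar. The Treg KO libraries sum to 9492 to 10230 on the left and 1858 to 2445 on the right, and Treg WT replicate 4, at 8755 and 992, is the highest Treg WT point in both.

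Markers of other cells were read beside these results, where 10.4% of all genes tested were higher in Treg KO and 11.1% lower. Of 6 tested B cell markers 2 rose in Treg KO, H2-Eb1 and H2-Aa, and the summed level of the 12 B cell markers in the table was 598 to 905 in Treg WT and 960 to 2037 in Treg KO, with Pax5 at 0 in all Treg KO libraries. The 7 plasma cell markers summed to 1143 to 1283 in Treg WT and 1276 to 2072 in Treg KO (0 of 4 tested passed in limma, 0 had an unadjusted p under 0.05), with Tnfrsf17 at 0 in both groups. Prf1 was the only 1 of 8 tested CD8 T and NK cell markers that passed, and it was lower in Treg KO. Of 3 tested myeloid markers 0 passed in limma (0 with an unadjusted p under 0.05), and the 11 in the table summed to 213 to 252 and 147 to 267. The 14 erythroid and platelet markers in the table summed to 22.6 to 33.7 and 10.8 to 26.7, and the 1 tested, Itga2b, fell. Of 8 T cell markers Cd3g and Cd4 rose, and of 10 Treg markers 0 passed in limma (0 with an unadjusted p under 0.05). The part of the B cell and plasma cell signal in the replication results was not tested.

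In Tconv, sorted from the same kinds of animals but low in Foxp3, fewer genes passed, as over all genes: 1 of the 48 genes was higher in KO and 0 were lower in limma, edgeR and DESeq2 alike, where 0.292% of all genes tested were higher and 0.389% lower (0.681% in either direction) in limma. Rrm2 was at 12.7, 19.5 and 24.7 in Tconv WT and at 107, 62.7, 51.3 and 62.2 in Tconv KO, without overlap, and rose by 1.84 ± 0.32 (adjusted p = 0.012). The call ended without Tconv WT replicate 1 (adjusted p = 0.11) or replicate 2 (0.062) and in a fit of the Tconv groups alone (0.069), and held at 1.62 (0.032) without Tconv KO replicate 1. Of the 48 genes 11 had an unadjusted p under 0.05, 41 estimates were positive and the median was 0.19, against 0.003 over all genes, and 0.11 for the 37 genes with a mean of at least 50. The libraries did not overlap for 11 genes on the higher side, where 7.79% of all genes tested had no overlap, and for 0 on the lower side (8.54%).

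Mcm5 and Rrm1, which had passed in Treg, did not pass in Tconv. Mcm5 was at 263, 255 and 296 in Tconv WT and at 369, 344, 304 and 350 in Tconv KO (0.33 ± 0.11, adjusted p = 0.22), and Rrm1 at 205, 239 and 241 and at 297, 270, 266 and 280 (0.29 ± 0.10, adjusted p = 0.24). For both, the libraries did not overlap. Mcm10 was at 0.904, 0 and 1.37 in Tconv WT and at 17.5, 6.84, 3.94 and 6.67 in Tconv KO (adjusted p = 0.16), too few reads in WT for a fold change. Pcna was at 612, 616 and 597 and at 540, 574, 619 and 501 (-0.13 ± 0.08, adjusted p = 0.53). Of the 20 mitosis genes 8 rose in Tconv KO, where 0.292% of all genes tested were higher and 0.389% lower. Among the 8 were Nusap1, from 3.84 ± 2.59 to 29.3 ± 8.91 (adjusted p = 0.0066), and Ccnb2, from 7.62 ± 0.549 to 27.2 ± 1.29 (0.011). The mitosis sum was highest in Tconv KO replicate 1, which is described below. Of the further replication factors, the further nucleotide genes and the E2F network, 0 of 30, 0 of 38 and 0 of 24 passed in limma (4, 3 and 11 with an unadjusted p under 0.05).

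One Tconv library stood apart. Tconv KO replicate 1 was the highest of its group for 22 of the 48 genes, and its mitosis sum was 1839 against 1049 to 1116 in the other 3. Its summed Treg markers were at 7030, against 1481 to 3391 in the other Tconv KO and 2289 to 2587 in the Tconv WT libraries. Foxp3 was at 47.2, 69.5, 27.6 and 18.9 in Tconv KO replicates 1 to 4, and between 14.4 and 20.6 in Tconv WT. The CD8 T and NK cell markers of Tconv KO replicate 1 summed to 2213, against 939 to 1392 in the other 3. Their part in the Tconv values was not tested.

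Whether the genotype difference itself differed between Treg and Tconv was tested as an interaction, in which 0 of the 48 genes passed in limma and 0 in edgeR, where 0.0354% of all genes tested were higher and 0.115% lower in limma. The estimate was larger in Treg for 35 genes and larger in Tconv for 13, with a median of 0.19, and 8 had an unadjusted p under 0.05. Mcm5 came nearest, with a rise that was 0.61 ± 0.15 larger in Treg than in Tconv (adjusted p = 0.17 in limma), and it alone passed in DESeq2 (adjusted p = 0.034). Rrm1 and Mcm4 followed with 0.45 ± 0.13 and 0.38 ± 0.11 (adjusted p = 0.31 and 0.32). For Rrm2 the 2 genotype differences were nearly equal (0.01 ± 0.43, adjusted p = 1.0). A difference between the cell types in the response of these genes is therefore not shown by this test, apart from the DESeq2 call of Mcm5.

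In the control animals few of the genes divided Treg from Tconv. Of the 48 genes 3 were higher in Treg WT than in Tconv WT and 3 lower, where 10% and 8.06% of all genes tested were, and the median was -0.01. The counts were 6 and 10 with library weights and 6 and 8 in a fit of the WT groups alone, and 5 were lower without Treg WT replicate 4 and 1 higher without Tconv WT replicate 1. Single genes differed widely. Tk1 was at 58.2, 60.7, 48.9 and 78.9 in Treg WT and at 16.3, 14.2 and 15.8 in Tconv WT, higher in Treg by 1.91 ± 0.29 (adjusted p = 1.8e-04). Pole2 was at 24.7, 23.4, 20.9 and 25.7 in Treg WT and at 84.1, 76.4 and 98.3 in Tconv WT, lower in Treg by 1.82 ± 0.21 (log2 fold change -1.82, adjusted p = 1.5e-05). Its partner Pole did not follow, at 62.2 ± 22.8 and 47.4 ± 5.39 (0.33 ± 0.21, adjusted p = 0.34). Rpa1 was at 946, 920, 890 and 944 in Treg WT and at 1375, 1269 and 1238 in Tconv WT (-0.48 ± 0.08, adjusted p = 4.4e-04), with no overlap. These 3 calls held in all 7 fits that left out 1 library and under the other settings in which the gene was tested; Tk1 was not tested at a mean of at least 50.

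Among the other 3 calls in the controls, Rrm2 was higher in Treg WT (1.15 ± 0.32, adjusted p = 0.018), a call that ended without Tconv WT replicate 1 (0.11), and Tyms was higher (0.63 ± 0.21, adjusted p = 0.045) and Pcna lower (-0.27 ± 0.08, adjusted p = 0.028). Tyms passed in 1 and Pcna in 2 of the 7 fits that left out 1 library, and without Tconv WT replicate 1 their adjusted p were 0.20 and 0.092. Tyms was kept only without Treg WT replicate 3, and Pcna only without Treg WT replicate 2 or 4. The 3 genes that were higher are all of nucleotide supply, 3 of the 5 in that role group, and of the further nucleotide genes 5 of 38 were higher (13.2%, near the 10% of all genes tested) and 0 lower. Among these, Samhd1, which breaks down deoxynucleotides, was at 8399 ± 790 in Treg WT and 4179 ± 151 in Tconv WT (adjusted p = 3.0e-06), and Dctd, which deaminates dCMP, at 50.9 ± 3.19 and 25.5 ± 2.49 (0.97 ± 0.24, adjusted p = 0.0085).

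**Figure D5:**
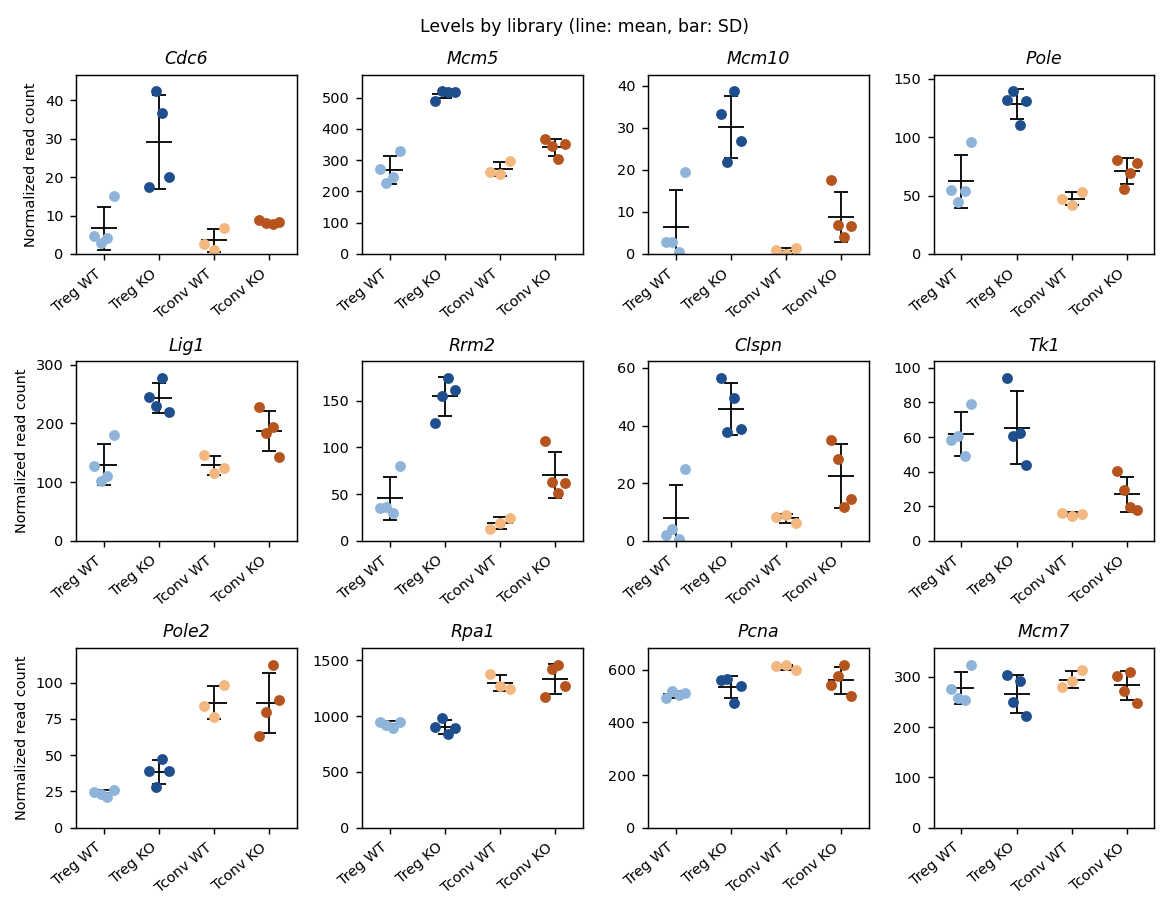
Normalized read counts of 12 of the 48 genes in the 4 groups, 1 point per library, with the mean as a line and the SD as a bar, each panel with its own axis from 0. Cdc6, Mcm5, Mcm10, Pole, Lig1, Rrm2 and Clspn are highest in Treg KO, Tk1 is higher in Treg and Pole2 and Rpa1 are lower in Treg whatever the genotype, and the genotypes of Treg overlap for Pcna and Mcm7.

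In the knockout animals more of the genes separated the cell types: 15 were higher in Treg KO than in Tconv KO and 3 lower, where 15.8% and 15.6% of all genes tested were, with a median of 0.22. The 15 include Cdc6 and Mcm10, which, like Orc1 among the 48, met the filter on low values only through Treg KO. At a mean of at least 50, where 37 genes were tested, 9 were higher and the median was -0.0010, and without Tconv KO replicate 2 the median was 0.14. Mcm5 was at 490, 522, 519 and 518 in Treg KO and at 369, 344, 304 and 350 in Tconv KO (0.59 ± 0.10, adjusted p = 4.6e-04). Rpa1 was at 898, 979, 836 and 896 against 1171, 1424, 1461 and 1273 (-0.56 ± 0.07, adjusted p = 4.1e-05), and Pole2 at 39.2, 27.9, 47.4 and 38.8 against 62.9, 79.8, 112 and 87.8 (-1.13 ± 0.19, adjusted p = 3.7e-04). The libraries did not overlap for these 3. Rrm1 (0.48 ± 0.09), Tk1 (1.27 ± 0.26), Cdc45 (0.93 ± 0.19), Mcm6 (0.56 ± 0.12), Pole (0.86 ± 0.20) and Hells (0.95 ± 0.22) were higher in Treg KO with adjusted p between 8.6e-04 and 0.0043, and Gins2 and Rrm2 were also higher (0.011 and 0.0071). These 11 calls held under every alternative in which the gene was tested. The calls of Cdc6, Mcm10, Prim2, Rfc3, Tyms and Chaf1a, higher in Treg KO, and of Rpa3, lower, each ended without at least 1 of the 8 libraries.

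Set side by side, 5 of the 48 genes passed between the cell types in both genotypes (Tk1, Rrm2 and Tyms higher in Treg, Pole2 and Rpa1 lower), 1 in WT alone (Pcna), 13 in KO alone and 29 in neither. The comparisons between cell types and those between genotypes share libraries and are not independent. In the fit to genotype, 25 genes passed in Treg alone, 1 in both cell types and 22 in neither. Of all genes tested, 21.5% passed in either direction by genotype in Treg and 0.681% in Tconv. Between the cell types 18.1% passed in WT and 31.4% in KO. The overlap of calls was not counted over all genes. By group mean, 28 of the 48 genes were highest in Treg KO, 10 in Tconv KO, 5 in Tconv WT and 5 in Treg WT, and neighbours in that order often did not differ beyond their spread, as the values above show for Pcna and Mcm7. The 28 include Orc1, Cdc6 and Mcm10, which met the filter only through Treg KO. How often each group was highest over all genes tested was not counted.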

How the data were processed

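RNA of 15 sorted T cell libraries was measured with an Illumina TruSeq RNA kit, per the labels' protocols. TopHat and mm10 are named in the submitters' processing notes; their versions and the counting step were not given in the sources used here. From their steps, the deposited signal values are gene counts that the authors divided by 1 size factor per library: whole reads were recovered for 100% of values (tolerance 0.001). The 11314 genes that reached 10 in 3 or more libraries were fitted as log2(value + 1) with 4 group means in limma 3.58.1 (R 4.3.3, trended spread, two-sided, Benjamini-Hochberg over all genes). All 48 members were tested. The members, lists and tests were chosen with earlier results of these data known. The labels do not say that samples came from separate animals, so p-values measure the spread between samples, which may be technical. The method was tested on simulated data. Alternatives were edgeR 4.0.16, DESeq2 1.42.0 and 11 others, beside leaving out each library. Per-library values were given for the member of smallest and largest p in each role group and those of smallest p in the other comparisons, with Rrm2, Mcm5 and Pcna, and up to 4 passing genes of smallest p in each other list; 1 such gene is not reported here. Positions came from GENCODE vM21 (GRCm38) and lengths from its longest coding transcript.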

Additional observations from a re-analysis of the deposited data

Results flagged for a closer look

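In 14 of the 144 sets of 4 libraries examined (48 genes in Treg WT, Treg KO and Tconv KO), 1 library lay far from the other 3 compared with the range of the group. For independent, normally spread values, chance gives this in about 1 of 20 groups. The genes here share libraries and some have few reads, so that rate may not apply. Of the 14 sets, 7 concerned Treg WT replicate 4, which was high for Orc1 (10.6, next 2.76), Cdc6 (15.1, next 4.80), Mcm10 (19.5, next 2.76), Clspn (24.8, next 4.14), Chaf1a (47.9, next 20.6), Rrm2 (79.8, next 36.6) and Rfc2 (348, next 277). Mki67 was also highest in that library. Treg WT replicate 3 was high for Mcm6 (842, next 770).

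Treg KO replicate 1 was low for Mcm5 (490, next 518) and for Dut (167, next 179), in groups with little spread. Treg KO replicate 3 was low for the loading factor Cdt1 (64.6, next 176), and Treg KO replicate 4 for Chaf1a (42.8, next 71.1). Tconv KO replicate 1 was high for Gins2 (17.5, next 7.78), and Tconv KO replicate 2 was low for Tipin (55.8, next 75.2).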

How the results depend on the processing

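Genes higher in Treg KO numbered 24, 17 (37 genes tested at a mean of at least 50) to 25 under the 13 other settings and 16 to 22 without 1 library. Genes lower numbered 2, with 1 for thinned reads, for the GC trend removed and for the length trend removed, 0 in a fit of only the groups compared, and 0 to 3 without 1 library. In Tconv KO the 1 higher gene became 0 in a fit of only the groups compared, and 0 to 1 without 1 library. In the interaction DESeq2 gave 1 higher gene. In Treg WT against Tconv WT, 3 higher genes became 5 (DESeq2), 1 (mean of at least 50), 6 (only the groups compared), 6 (library weights) and 1 to 3 without 1 library. The 3 lower genes became 6 (edgeR), 6 (DESeq2), 5 (quantile normalization), 8 (only the groups compared), 10 (library weights), 5 (GC trend removed) and 2 to 5 without 1 library. In Treg KO against Tconv KO, 15 higher genes became 9 at a mean of at least 50, and 11 to 18 without 1 library; the median of 0.22 became -0.0010 at a mean of at least 50, where 37 genes were tested, and 0.14 without Tconv KO replicate 2. The Tconv KO median of 0.19 became 0.11 at a mean of at least 50. Apart from the fewer genes or samples in some settings, the cause was not tested. Thinned to 1 depth, 19 genes were higher in Treg KO. Depth limits genes of few reads, such as Orc1, Cdc6, Mcm10, Gins1, Gins2 and Clspn. The labels carry sample numbers only, and replicate numbers were assigned here in their order within each group. Within each genotype Treg and Tconv samples alternate in that order, apart from Treg WT replicate 4, which follows another Treg sample. Whether neighbouring samples came from the same animal is not known. No pairing was therefore used, and the cell types were compared as unpaired groups.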
